A study of Mus musculus with 59 samples.

Results

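The 9 genes described here handle iron or belong to the acute phase response: the ferritin subunits Fth1 and Ftl1, the iron exporter Slc40a1 (ferroportin), the ferroxidase Cp (ceruloplasmin), the transferrin receptor Tfrc, the divalent metal transporters Slc11a1 and Slc11a2, and the secreted proteins Lcn2 (lipocalin 2) and Saa3 (serum amyloid A3). They were chosen by gene symbol, and all 9 were present among the 32070 genes measured. RNA sequencing was done on primary microglia, the macrophages that reside in the brain, cultured from newborn mouse pups. Mice carried a conditional Tbk1 allele and a Cre recombinase under Cx3cr1 control, which acts in microglia and other cells that express Cx3cr1. WT is Tbk1fl/fl without Cre, HET is Tbk1fl/+ with Cre, and KO is Tbk1fl/fl with Cre, so a difference between WT and KO or HET cannot be told apart from an effect of Cre, which KO and HET share. Cells were plated for 16 h and then kept for 24 h untreated (UT), with lipopolysaccharide (LPS, 100 ng/mL, a bacterial ligand of Toll-like receptor signalling), with interleukin-4 (IL4, 20 ng/mL), or with poly(I:C), here pIC, which mimics viral double-stranded RNA and whose dose the sources used here do not give. Each of the 12 groups of genotype and treatment holds 5 libraries, except WT UT with 4 (its replicate 5 is not analysed here), for 59 libraries in all.

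Cells take up iron bound to transferrin through Tfrc, move it out of endosomes and phagosomes through Slc11a2 and Slc11a1, store it in shells of heavy (Fth1) and light (Ftl1) ferritin chains, and release it through Slc40a1, helped by the ferroxidase activity of Cp. In inflammation macrophages are known to hold iron back from microbes: Slc40a1 falls, ferritin rises, and Lcn2 binds the siderophores with which bacteria collect iron. Saa3 is the serum amyloid A family member that mouse macrophages make locally. Tbk1 encodes a kinase of innate immune signalling.

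Values are TPM, the share of each gene among all transcripts after scaling for gene length. Differences are given on the log2(TPM + 1) scale with their standard error, from limma's moderated test with Benjamini-Hochberg adjustment over all genes tested, and a gene is called at an adjusted p under 0.05. All 9 genes were among the 15908 genes tested in UT, LPS and IL4 libraries and the 13919 tested in pIC libraries. Lcn2 reached 1 TPM in 22 of 44 UT, LPS and IL4 libraries and in 11 of 15 pIC libraries, and Slc40a1 in 42 of 44. The other 7 genes reached it in every library. The pIC libraries were deposited as a table of their own, so pIC levels are set beside the others without a test. Replicates are independent cultures, per the labels.

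The libraries summed to between 999806 and 999936 TPM, and the depth in reads is unknown. Tbk1 averaged 47.5 ± 4.17 TPM (SD, n = 4) in WT UT, 34.9 ± 1.67 (n = 5) in HET UT and 19.9 ± 4.74 (n = 5) in KO UT, and in every treatment all KO libraries lay below all HET libraries and these below all WT libraries. All 10 microglial markers averaged at least 1 TPM in every group. With LPS, the summed TPM of these markers went from 9070 to 10466 in WT UT to 2583 to 3144 in WT LPS. Astrocyte markers summed to 159 to 268 TPM in WT UT and 62.4 to 93.2 in WT LPS, and markers of the oligodendrocyte lineage had a median sum of 1487 and 337 TPM. In bulk RNA, fewer cells of a type and less RNA per cell cannot be told apart. Choroid plexus markers summed to 64.8 TPM in WT UT 1 and 48.5 in WT LPS 1, and to at most 1.70 in the other UT and LPS libraries. Among IL4 libraries they summed to 33.5 in KO IL4 4 and 16.5 in WT IL4 1, and to at most 1.30 in the others. Among pIC libraries they summed to 26.9 in HET pIC 1, 11.1 in WT pIC 1 and 4.80 in KO pIC 4, and to at most 0.338 in the others.

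Promoter sequences are shown for the 4 genes with the largest rises under LPS, Fth1, Cp, Lcn2 and Saa3, because the LPS results that follow turn on them. Each is the 250 bases before a RefSeq transcript start, 5′ to 3′ on the strand of the gene, in build GRCm38.p6. Capitals mark matches to a C/EBP motif (TTGCNNAA, either strand) and, in Saa3, also to an interferon-stimulated response element (GAAA, any 2 bases, GAAA, either strand).
Lcn2, chr2:32387740-32387989, minus strand: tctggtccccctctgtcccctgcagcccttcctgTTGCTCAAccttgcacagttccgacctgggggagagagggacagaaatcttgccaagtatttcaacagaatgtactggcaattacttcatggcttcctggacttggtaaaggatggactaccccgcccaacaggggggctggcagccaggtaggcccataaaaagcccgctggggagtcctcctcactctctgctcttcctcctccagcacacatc
Saa3, chr7:46715677-46715926, minus strand: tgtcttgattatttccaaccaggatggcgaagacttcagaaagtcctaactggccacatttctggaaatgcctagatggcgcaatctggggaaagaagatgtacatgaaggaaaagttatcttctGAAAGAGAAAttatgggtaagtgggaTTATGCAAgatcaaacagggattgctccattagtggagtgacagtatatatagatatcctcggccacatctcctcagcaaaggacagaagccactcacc
Cp, the second of 2 windows, chr3:19956999-19957248, plus strand: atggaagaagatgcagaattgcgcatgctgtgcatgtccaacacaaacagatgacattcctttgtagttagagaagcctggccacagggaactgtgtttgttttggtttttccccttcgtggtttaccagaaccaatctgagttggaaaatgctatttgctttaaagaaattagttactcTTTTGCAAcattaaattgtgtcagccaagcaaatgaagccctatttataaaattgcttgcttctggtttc
Fth1, the second of 2 windows, chr19:9982396-9982645, plus strand: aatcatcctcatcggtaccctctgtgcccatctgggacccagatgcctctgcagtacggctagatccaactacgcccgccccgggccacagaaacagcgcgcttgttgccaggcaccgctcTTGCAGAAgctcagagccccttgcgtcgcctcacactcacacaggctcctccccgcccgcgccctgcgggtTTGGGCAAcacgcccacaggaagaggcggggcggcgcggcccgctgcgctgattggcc

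The C/EBP letters lie at bases -216 to -209 from the start site in Lcn2, -99 to -92 in Saa3 and -70 to -63 in Cp. Fth1 holds 2 matches, at -129 to -122 and -58 to -51. The interferon-type match in Saa3 spans -125 to -116. The first windows of Cp and Fth1, which are not shown, hold neither motif. Of 32851 RefSeq promoter windows of this length, 9.56% hold the C/EBP letters and 2.98% the interferon-type letters. RefSeq windows were matched for 7 of the 9 genes. The C/EBP letters were not in the windows of Ftl1, Tfrc or Slc11a1. An NF-kB consensus, searched on both strands and held by 3.90% of windows, matched only in Ftl1, at -15 to -6. TTCNNNGAA (STAT, 7.02% of windows) and TGACNNNGC (antioxidant response element, 10.2%) matched in none of the 7 genes. These matches are letters in a window, and no binding was measured.

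In the GENCODE M21 annotation of GRCm38, Slc40a1 lies at chr1:45908068-45926523 and Slc11a1 at chr1:74375195-74386062, Fth1 at chr19:9980598-9985098, Ftl1 at chr7:45457944-45459884 and Saa3 at chr7:46711998-46715700. Tfrc lies at chr16:32608920-32632794, Slc11a2 at chr15:100387898-100425072, Cp at chr3:19957054-20009145 and Lcn2 at chr2:32384633-32388252. Cp overlaps Hps3 on the opposite strand, and whether reads were counted by strand is unknown. Hps3 averaged 15.5 to 32.8 TPM per group, and in WT LPS it was at 15.5 TPM while Cp was at 145.5. Ftl1 has a near-identical copy, Ftl1-ps1, listed at 513 to 1689 TPM, so Ftl1 values are uncertain by the reads that the counting shared between them. Per group, Ftl1-ps1 held between 10.7% and 11.5% of the sum of both. Of the relatives of Saa3, Saa1 reached at most 4.32 TPM and Saa2 at most 1.74.

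**Figure D1:**
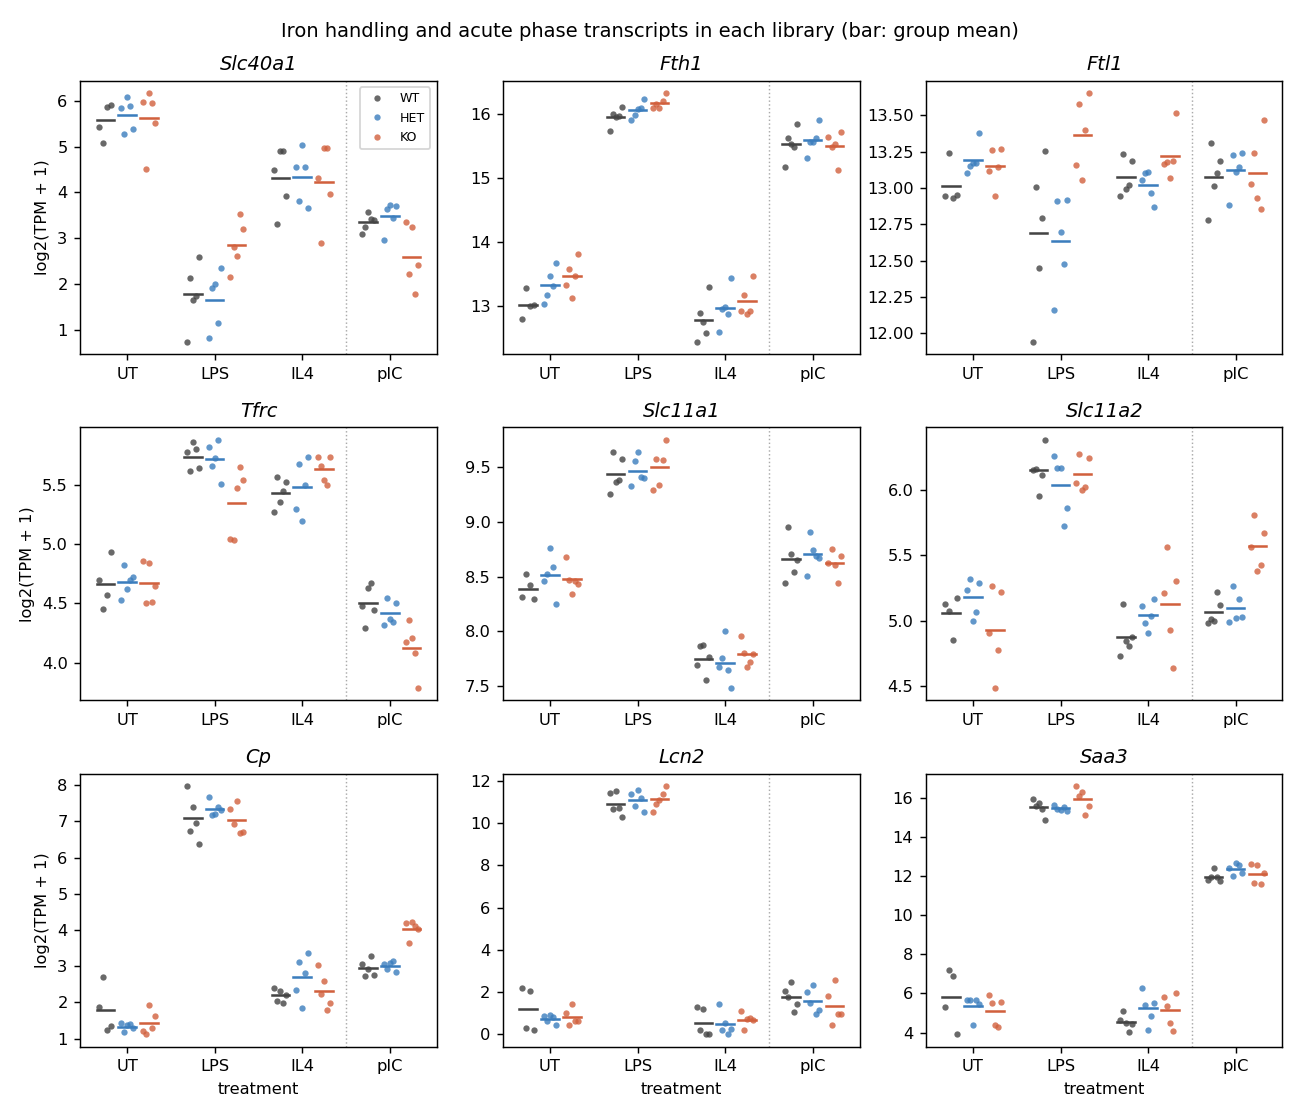
Each point is 1 library, with log2(TPM + 1) on the vertical axis, which does not start at 0 and differs between panels. Treatments are on the horizontal axis, genotypes by colour, and bars are group means, with pIC libraries from a separate table right of the dotted line. Saa3 and Lcn2 both rise with LPS, but with pIC only Saa3 lies far above its UT level, at 3091 to 6589 TPM.

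LPS raised 7 of the 9 transcripts in WT cells and lowered 1, where 75.8% of all genes tested were called (13.9% higher and 61.9% lower). In HET cells 7 rose and 2 fell, where 74.0% of all genes were called (14.3% higher and 59.7% lower). In KO cells 7 rose and 1 fell, where 69.6% were called (13.1% higher and 56.5% lower). The transcripts that rose in each genotype were Fth1, Tfrc, Slc11a1, Slc11a2, Cp, Lcn2 and Saa3, and Slc40a1 fell in each. For WT the median log2 difference over the 9 genes was 1.10, beside -0.59 over all genes tested. The same medians were 1.04 and -0.51 for HET, and 1.19 and -0.44 for KO. Median-of-ratios scaling, which sizes each library by its typical gene, moved the medians of all genes to -0.06 (WT), -0.05 (HET) and -0.03 (KO). It split the calls over all genes into 5024 higher and 5139 lower for WT in place of 2210 and 9854, into 5134 and 5186 for HET in place of 2275 and 9497, and into 4669 and 4629 for KO in place of 2085 and 8993. The 8 calls named above kept their direction under every scaling tried. The share of all TPM held by Fth1 and Saa3 together averaged 0.846% in WT UT. Under LPS it averaged 11.2% for WT, 11.4% for HET and 14.1% for KO.

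The storage subunit Fth1 was the most abundant transcript of all genes in each LPS group. Its level was 7124, 9920, 8194 and 8272 TPM in the WT UT libraries 1 to 4 and 54475, 65418, 63630, 64031 and 70562 in WT LPS 1 to 5. HET cells went from 8367, 9249, 11359, 10168 and 13067 to 61358, 65378, 69346, 69780 and 77532, and KO cells from 10322, 12211, 8927, 11391 and 14437 to 70454, 73490, 70117, 75841 and 82152. No LPS library overlapped a UT library in any genotype. The LPS difference of Fth1 was 2.93 ± 0.16 in WT (adjusted p = 1.89e-19), 2.73 ± 0.15 in HET (2.19e-19) and 2.72 ± 0.15 in KO (4.75e-19). As a ratio of means, WT rose 7.59-fold, HET 6.58-fold and KO 6.49-fold.

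The light subunit Ftl1 did not follow. It was at 7862, 9674, 7811 and 7926 TPM in WT UT and at 3939, 8241, 5599, 7101 and 9778 in WT LPS, so the groups overlapped. HET libraries went from 8791, 9104, 9210, 9205 and 10658 to 4586, 7680, 6629, 5708 and 7738 without overlap. KO libraries went from 8897, 9830, 7893, 9034 and 9866 to 9149, 12190, 8502, 10792 and 12846. In WT 3 of 5 LPS libraries lay below every UT library, and WT LPS 5 lay above them all. In KO 3 of 5 lay above every UT library. The difference was -0.33 ± 0.16 in WT (adjusted p = 0.0683), -0.56 ± 0.15 in HET (0.00134) and 0.22 ± 0.15 in KO (0.204), and its sign depends on the scaling: median-of-ratios scaling gave 0.36 (WT), 0.0603 (HET) and 0.75 (KO), of which only the KO rise was called (adjusted p = 0.00312). Quantile normalization gave -0.67 in WT (0.000431), which was called, -0.86 in HET (4.95e-06) and 0.11 for KO (0.572). TPM rescaled without the 9 genes gave -0.16 (0.373), -0.40 (0.0197) and 0.43 (0.014), so that the KO rise was called there too. With the replicate number as a block shared by all UT, LPS and IL4 groups, the WT fall was called (-0.38, adjusted p = 0.00722). Every same-numbered pair deviated together between UT and LPS in WT and KO, but not between all groups that share the block. The WT fall was also called without WT LPS 2 (0.0309) or WT LPS 5 (0.00855), and without WT LPS 1 it shrank to -0.14 (0.387).

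**Figure D2:**
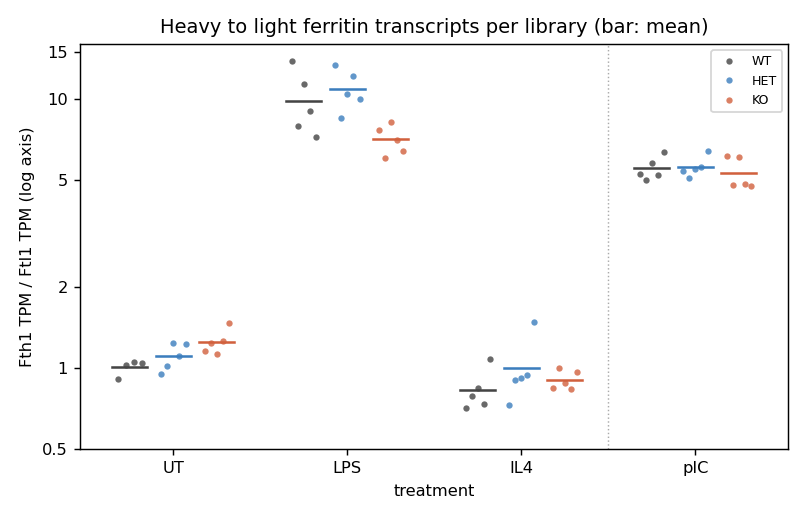
Each point is the ratio of Fth1 to Ftl1 TPM in 1 library on a log axis, with treatments on the horizontal axis, genotypes by colour and bars at group means. The ratio lies between 0.707 and 1.49 in all UT and IL4 libraries, between 4.75 and 6.40 with pIC and between 6.03 and 13.8 with LPS.

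The ratio of Fth1 to Ftl1, which no scaling of a library changes, was chosen after its values were seen. It averaged 1.01 ± 0.0674 (SD, n = 4) in WT UT and 9.87 ± 2.71 (n = 5) in WT LPS. The HET means were 1.11 ± 0.125 and 10.9 ± 1.91, and the KO means 1.25 ± 0.130 and 7.08 ± 0.912. On the log2 scale the LPS differences of the ratio were 3.26 ± 0.18 in WT (exact permutation test, p = 0.0159, adjusted p = 0.0476), 3.29 ± 0.14 in HET and 2.496 ± 0.11 in KO (each exact p = 0.00794, adjusted p = 0.0357), with every LPS library above every UT library. KO LPS libraries lay at 7.70, 6.03, 8.25, 7.03 and 6.39, all below the HET LPS libraries at 13.4, 8.51, 10.5, 12.2 and 10.0. WT LPS libraries, at 13.8, 7.94, 11.4, 9.02 and 7.22, overlapped those of KO. Over 18 comparisons of this ratio by two-sided exact permutation test, KO against HET under LPS gave a log2 difference of -0.62 ± 0.14 (exact p = 0.00794, the smallest that 5 against 5 allows, adjusted p = 0.0357). KO against WT under LPS gave -0.45 ± 0.19 (exact p = 0.0476, adjusted p = 0.122). In UT cells KO lay above WT by 0.31 ± 0.08 (exact p = 0.0159, the smallest that 5 against 4 allows, adjusted p = 0.0476), and with 1 library left out the adjusted p of this difference, and of LPS against UT in WT, ran from 0.0857 to 0.107, as fewer libraries raise the smallest p possible. IL4 lowered the ratio in KO cells by 0.47 ± 0.08 (exact p = 0.00794, adjusted p = 0.0357). With Ftl1-ps1 counted into the light chain, each of the 18 comparisons stayed on its side of the threshold. Ftl1-ps1 held a nearly constant share of that sum, 10.7% to 11.5% per group. Adding it could therefore hardly move the differences, and this does not check how reads were shared.

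Slc40a1, the only known cellular iron exporter, fell the most of the 9 genes. Its level was 42.3, 32.8, 57.0 and 59.1 TPM in WT UT and 0.668, 3.37, 2.13, 2.34 and 5.01 in WT LPS. HET libraries went from 56.5, 38.0, 67.0, 57.7 and 41.0 to 0.747, 2.74, 3.00, 1.22 and 4.12, and KO libraries from 61.6, 21.8, 70.6, 60.7 and 44.6 to 3.45, 5.96, 5.08, 10.5 and 8.22. Every LPS library lay below every UT library of its genotype. The mean was 17.7-fold lower in WT LPS than WT UT, 22.0-fold lower in HET and 7.82-fold lower in KO. On the log2 scale these were -3.80 ± 0.40 (adjusted p = 7.7e-11), -4.05 ± 0.37 (2.65e-12) and -2.76 ± 0.37 (4.36e-08).

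Cp, the ferroxidase that acts beside the exporter, rose from 2.69, 5.48, 1.35 and 1.55 TPM in WT UT to 249, 105, 169, 123 and 81.4 in WT LPS. HET LPS libraries held 201, 143, 147, 167 and 157 TPM and KO LPS libraries 162.1, 121.0, 188.7, 100.9 and 103.4, where no UT library of either genotype passed 2.81. Cp thus rose by 5.29 ± 0.28 in WT (adjusted p = 2.22e-19), by 6.02 ± 0.27 in HET (4.51e-22) and by 5.61 ± 0.27 in KO (7.17e-21). Astrocyte markers, from cells that also make Cp, summed to less with LPS than without, and so did microglial markers (values above). Which cells made the Cp was not tested. WT LPS 1, the LPS library with choroid plexus markers, had the highest Cp and the lowest Slc40a1 and Ftl1 of its group. Without it the LPS difference in WT was 5.07 for Cp and -3.54 for Slc40a1. HET LPS 1, where choroid plexus markers summed to 0 TPM, likewise had the highest Cp and the lowest Slc40a1 and Ftl1 of its group (201, 0.747 and 4586 TPM). The part of choroid plexus cells in these values was not tested.

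The uptake and transport genes rose by 1.64- to 2.28-fold as ratios of means. Tfrc was at 24.9, 20.9, 22.7 and 29.5 TPM in WT UT and 53.6, 47.9, 57.0, 54.7 and 48.7 in WT LPS, a difference of 1.07 ± 0.12 (adjusted p = 2.69e-10). It was 1.04 ± 0.11 in HET and 0.67 ± 0.11 in KO (adjusted p = 1.24e-10 and 1.85e-06). Slc11a1, which pumps metals out of the phagosome, went from 317, 368, 342 and 314 TPM to 610, 792, 656, 665 and 760 in WT (1.05 ± 0.10, adjusted p = 8.5e-12), with 0.95 ± 0.10 in HET and 1.03 ± 0.10 in KO. Slc11a2 went from 33.9, 32.7, 27.9 and 35.1 TPM to 70.1, 70.6, 61.0, 68.2 and 82.4 in WT (1.10 ± 0.14, adjusted p = 7.76e-09), with 0.85 ± 0.13 in HET and 1.19 ± 0.13 in KO. For these 3 genes the UT and LPS libraries did not overlap in any genotype. The share of all genes without such overlap is not given here, and LPS called 69.6% to 75.8% of all genes tested. Median-of-ratios scaling made the WT differences larger, 1.74, 1.73 and 1.76.

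Lcn2 and Saa3 rose the most. Lcn2 was at 3.51, 0.251, 3.16 and 0.163 TPM in WT UT and 2695, 1613, 2879, 1698 and 1234 in WT LPS. HET LPS libraries reached 2680, 1814, 3022, 2329 and 1447 and KO LPS libraries 1469, 1885, 2177, 2672 and 3413, and all 10 UT libraries of these genotypes were at 1.71 or less. Its differences were 9.72 ± 0.35 in WT, 10.35 ± 0.33 in HET and 10.30 ± 0.33 in KO (adjusted p = 5.47e-25, 7.16e-27 and 1.36e-26), and they understate the change of a gene this low without LPS. Saa3 went from 39.2, 147, 118 and 14.0 TPM in WT UT to 64038, 49586, 54736, 44581 and 30116 in WT LPS. HET LPS held 51232, 43771, 43256, 47802 and 41198 and KO LPS 99246, 70098, 80057, 36262 and 48954. Saa3 ranked second of all genes in each LPS group, behind Fth1. Its differences were 9.69 ± 0.46, 10.11 ± 0.44 and 10.81 ± 0.44 (adjusted p = 6.05e-21, 1.8e-22 and 3.59e-23). Neutrophils also make Lcn2, and of 11 neutrophil markers 7 were in the tables: they summed to 1.61 to 4.99 TPM in WT UT and 167 to 242 in WT LPS. Mmp8 (mean 106.4 TPM) and S100a8 (88.1) made up nearly all of that, while Mpo, Ngp and Cxcr2 were at 0 in every LPS library. The part of neutrophils in Lcn2 was not tested.

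**Figure D3:**
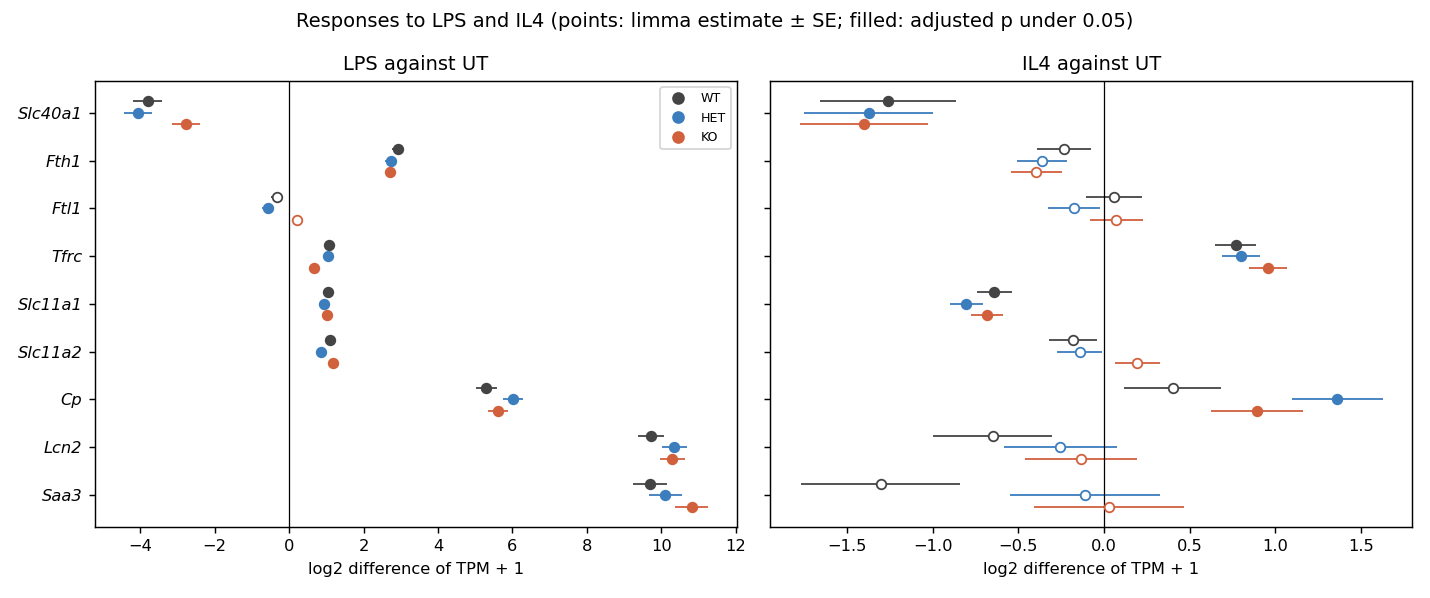
Points are limma estimates of the log2 difference of TPM + 1 from UT, bars are standard errors, and filled points were called at an adjusted p under 0.05, with LPS on the left, IL4 on the right and genotypes by colour. With LPS, 7 genes lie right of 0 and Slc40a1 left of it in all genotypes, and with IL4 Tfrc lies right of 0 and Slc40a1 and Slc11a1 left of it.

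IL4 moved fewer of the 9 genes and by less. Tfrc rose in every genotype, and Slc40a1 and Slc11a1 fell in every genotype. WT had 1 gene higher and 2 lower, where 6.31% of all genes tested were called (3.68% higher and 2.63% lower). HET had 2 higher and 2 lower, where 7.05% of all genes were called (3.97% and 3.09%), and so had KO, where 8.41% were called (5.38% and 3.03%). Tfrc reached 37.4, 46.3, 40.0, 42.5 and 45.1 TPM in WT IL4, 38.3, 50.0, 35.6, 44.2 and 52.2 in HET and 52.3, 49.3, 45.5, 44.1 and 52.3 in KO. All of these lie above every UT library, the highest of which had 29.5. Tfrc differed by 0.77 ± 0.12, 0.80 ± 0.11 and 0.96 ± 0.11 (adjusted p = 1.04e-05, 1.2e-06 and 2.1e-08). Slc11a1 fell to 206, 232, 234, 187 and 217 TPM in WT IL4, by 0.64 ± 0.10 on the log2 scale (adjusted p = 1.67e-05), and by 0.80 ± 0.10 in HET and 0.68 ± 0.10 in KO. LPS had raised both Tfrc and Slc11a1, so IL4 and LPS moved Tfrc the same way and Slc11a1 opposite ways.

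With IL4 the WT libraries held Slc40a1 at 21.5, 8.95, 28.8, 29.0 and 14.2 TPM. HET libraries held 22.6, 13.1, 31.5, 22.6 and 11.6 TPM and KO libraries 18.8, 6.42, 30.4, 30.1 and 14.5. Replicate 2 was lowest in WT and KO, and KO libraries overlapped those of KO UT, where replicate 2 was also lowest. The differences were -1.26 ± 0.40 (adjusted p = 0.0481), -1.37 ± 0.37 (0.0149) and -1.40 ± 0.37 (0.0111). The WT call was lost under 5 of the other settings (adjusted p 0.0511 to 0.107) and without WT UT 1, 3 or 4 or WT IL4 1, 2 or 5 (0.0554 to 0.187). The HET call was lost without HET IL4 2 (0.0527) or 5 (0.0654), and the KO call without KO IL4 2 (0.0711) or when only KO libraries were fitted (0.0573). Cp was called higher in HET, at 4.07, 7.59, 2.62, 6.08 and 9.26 TPM against 1.26 to 1.69 in UT (1.36 ± 0.27, adjusted p = 0.000405). In KO its call (0.89 ± 0.27, adjusted p = 0.027) was lost with no filter (0.0547) and without KO UT 1, 2 or 4 or KO IL4 1 or 3 (0.065 to 0.129). Fth1 differed by -0.23 ± 0.16 in WT (adjusted p = 0.421), -0.36 ± 0.15 in HET (0.151) and -0.39 ± 0.15 in KO (0.0977). With replicates as a block shared by all groups, Fth1 was called lower in WT (-0.31, adjusted p = 0.0288) and KO (-0.39, 0.00154). Saa3 was called lower in WT (-1.32, 0.0317), so that 4 members fell in WT instead of 2. Every same-numbered pair deviated together between UT and IL4 in WT and KO, but not between all groups that share the block. Saa3 in WT was also called without WT UT 4 (-1.95, adjusted p = 0.00363).

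Under LPS, KO cells had more Slc40a1 and Ftl1 and less Tfrc than WT cells, 2 higher and 1 lower of 9, where 27.6% of all genes tested were called (14.4% higher, 13.2% lower). Against HET these 3 genes were called in the same directions, where 24.0% of all genes were called (12.5% higher, 11.5% lower). Both comparisons use the same KO libraries, and the shares of 3 in 9 stand near those of all genes. Ftl1 (library values above) averaged 10696 ± 1876 TPM in KO LPS (SD, n = 5), 6932 ± 2268 in WT LPS and 6468 ± 1344 in HET LPS. KO and HET libraries did not overlap, and of the WT libraries only WT LPS 5 reached past the lowest KO library. The difference was 0.68 ± 0.15 from WT (adjusted p = 0.000646) and 0.73 ± 0.15 from HET (0.000286). Ftl1-ps1 differed by 0.61 ± 0.16 and 0.74 ± 0.16. The Ftl1 call against WT was lost when only the WT and KO libraries under LPS were fitted (adjusted p = 0.0608), and without WT LPS 1 the difference was 0.49 (0.0058).

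Slc40a1 averaged 6.63 ± 2.74 TPM in KO LPS, 2.70 ± 1.61 in WT LPS and 2.36 ± 1.37 in HET LPS, and the libraries overlapped. The difference was 1.09 ± 0.37 from WT (adjusted p = 0.0256) and 1.21 ± 0.37 from HET (0.0138). The call against WT was lost without WT LPS 1 (0.83, adjusted p = 0.110) or 3 (0.0502) or KO LPS 4 (0.0849) or 5 (0.0615), and with no filter on low values (0.0541). The call against HET was lost without HET LPS 1 (0.0607) or KO LPS 4 (0.0505). Markers of border macrophages and monocytes, 9 of 9 in the tables, summed to 950 to 1507 TPM in KO LPS, 463 to 555 in WT LPS and 484 to 966 in HET LPS. Pf4 led them, with means of 1006, 137 and 362 TPM, where all 9 together averaged 1210, 519 and 704. Without Pf4 the rest of the list thus summed to less in KO LPS than in WT or HET LPS. Microglial markers summed to 3007 to 4685 TPM in KO LPS. The part of either set of markers in the Slc40a1, Ftl1 and Tfrc differences was not tested.

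Tfrc was at 31.9, 31.8, 43.3, 49.2 and 45.6 TPM in KO LPS, against 53.6, 47.9, 57.0, 54.7 and 48.7 in WT LPS and 55.4, 49.3, 51.8, 57.8 and 44.3 in HET LPS. KO libraries 1 and 2 were lowest. The difference was -0.39 ± 0.11 from WT (adjusted p = 0.00647) and -0.37 ± 0.11 from HET (0.0117). Both calls were lost with quantile normalization (0.0587 and 0.0784) and when only the groups compared were fitted (0.0512 and 0.0817). The call against HET was also lost without KO LPS 1 (0.0574) or 2 (0.0661).

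Fth1, Slc11a1, Slc11a2, Cp, Lcn2 and Saa3 were not called between KO and WT or HET under LPS. Saa3 spread widest, from 36262 to 99246 TPM in KO LPS, and its difference from WT was 0.42 ± 0.44 (adjusted p = 0.561). That of Lcn2 was 0.21 ± 0.33 (0.715) and that of Fth1 0.23 ± 0.15 (0.286). Whether the LPS response itself differed between KO and WT was tested directly. No member was called at an adjusted p under 0.05, where 16.4% of all genes tested were called (9.36% higher, 7.03% lower). An unadjusted p under 0.05 was seen for 2 of 9, Ftl1 and Tfrc, and the share of all genes at that threshold is not given here. The difference of responses was 0.54 ± 0.22 for Ftl1 (adjusted p = 0.0966), -0.40 ± 0.16 for Tfrc (0.0923), 1.04 ± 0.55 for Slc40a1 (0.216) and 1.12 ± 0.64 for Saa3 (0.26). With the replicate number as a block shared by all genotypes, Ftl1 was called (0.60, adjusted p = 0.0105). It was lower with LPS in 4 of 4 same-numbered WT pairs and 5 of 5 HET pairs, and higher in 5 of 5 KO pairs. WT LPS 5, which has no UT partner, lay above every WT UT library at 9778 TPM. Ftl1 was also called without WT LPS 5 (0.69, adjusted p = 0.0229) and with quantile normalization (0.77, 0.0105), Tfrc without WT UT 4 (0.0402) or KO LPS 4 (0.0383), and Saa3 without WT UT 4 (1.77, 0.033).

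**Figure D4:**
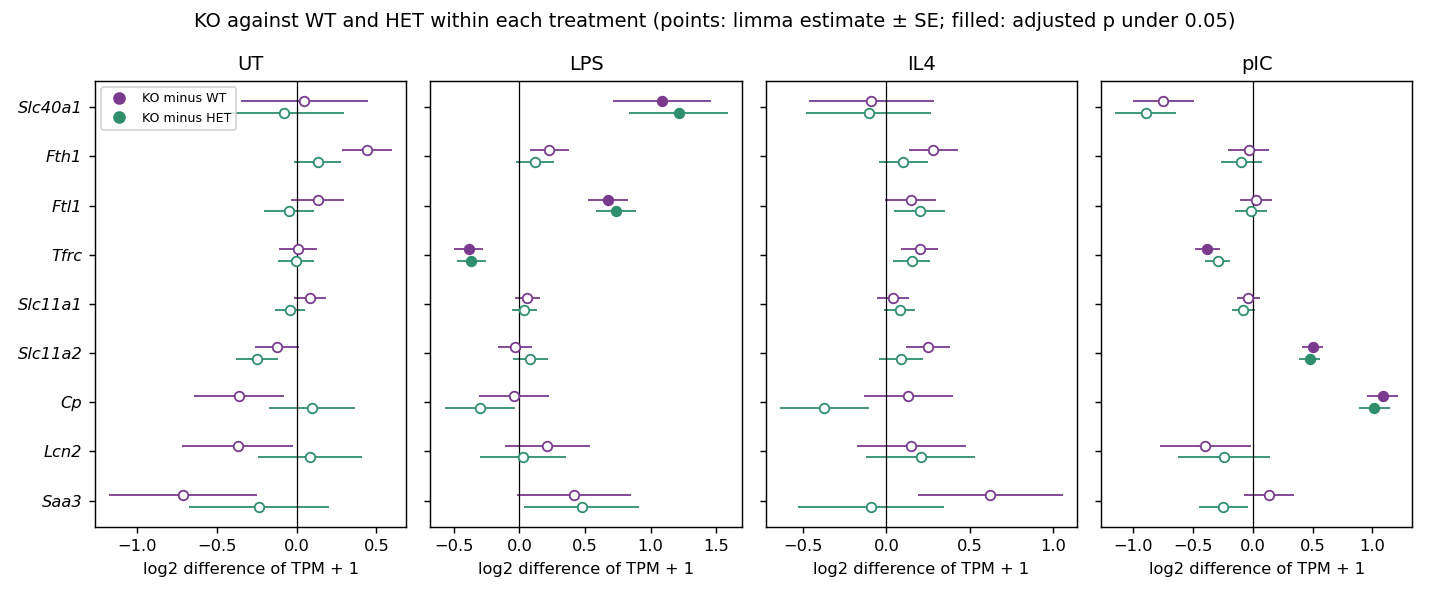
Points are limma estimates of the log2 difference of TPM + 1 between KO and WT (purple) or KO and HET (green), bars are standard errors, and filled points were called at an adjusted p under 0.05, with 1 panel per treatment and its own horizontal scale. No point is filled in UT or IL4, Slc40a1, Ftl1 and Tfrc are filled with LPS, and Slc11a2 and Cp with pIC in both comparisons and Tfrc against WT alone.

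In UT and IL4 cells limma called none of the 9 genes between KO and WT or KO and HET, where at most 0.044% of all genes tested were called. KO against WT called 0.0314% of all genes in UT, 0.0126% higher and 0.0189% lower, and 0.044% in IL4, 0.0251% higher and 0.0189% lower, and KO against HET called 0.00629% in either treatment. At an unadjusted p under 0.05 there was 1 member, Fth1, in KO against WT in UT (0.44 ± 0.16, adjusted p = 0.759), and 0 in the other 3 comparisons. HET against WT called no member in any treatment, where 0.0126% of all genes were called in UT, LPS and IL4 alike and 0.0% in pIC. With HET against WT, 0 members had an unadjusted p under 0.05. Tbk1, lower in all HET than in all WT libraries of each treatment, was not called between them either. Its differences were -0.43 ± 0.15 in UT, -0.58 ± 0.14 in LPS, -0.49 ± 0.14 in IL4 and -0.61 ± 0.11 in pIC. A gene not called between HET and WT may thus still differ. The LPS response of HET minus WT and the IL4 responses of KO and HET minus WT called no gene at all (0.0%). Among these 3 response comparisons 0, 1 (Saa3) and 1 (Cp) members had an unadjusted p under 0.05. The shares of all genes at that unadjusted threshold are not given here.

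Under pIC the genes that separated KO from the other genotypes were Cp and Slc11a2. Relative to WT, 2 of the 9 were higher in KO and 1 was lower, where 11.5% of all genes tested were called (3.4% higher, 8.11% lower). Against HET 2 were higher and 0 lower, where 5.24% were called (1.65% higher, 3.6% lower). Over all genes, 473 were higher and 1129 lower against WT, and median-of-ratios scaling gave 724 and 470. Against HET it gave 289 and 216 in place of 229 and 501. Cp was at 17.1, 11.5, 17.5, 16.2 and 15.3 TPM in KO pIC, against 7.29, 5.62, 6.62, 8.65 and 5.71 in WT pIC and 7.34, 6.63, 7.56, 7.89 and 6.16 in HET pIC. Every KO library lay above every other library. Its mean was 2.29-fold that of WT (1.09 ± 0.13, adjusted p = 0.000143) and 2.18-fold that of HET (1.02 ± 0.13, 0.000453). Slc11a2 was at 46.3, 55.2, 40.7, 41.9 and 50.0 TPM in KO pIC, against 30.7, 31.3, 31.0, 36.3 and 33.7 in WT and 30.7, 37.6, 31.6, 34.9 and 31.6 in HET, again without overlap. The difference was 0.50 ± 0.09 from WT (adjusted p = 0.00224) and 0.48 ± 0.09 from HET (0.00678). The calls of Cp and Slc11a2 held under each of the alternatives tried. All 10 microglial markers summed to 7789 to 10950 TPM in KO pIC, 6074 to 7155 in WT pIC and 6581 to 8363 in HET pIC, so KO and WT did not overlap. Their part in the KO differences under pIC was not tested. Hps3, on the other strand of Cp, averaged 27.2 TPM in WT pIC, 30.0 in HET pIC and 32.8 in KO pIC.

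Tfrc was at 17.0, 19.5, 17.4, 15.9 and 12.8 TPM in KO pIC and 21.2, 18.6, 23.8, 24.5 and 20.8 in WT pIC, with overlap (-0.38 ± 0.11, adjusted p = 0.0292). This call was lost under quantile normalization (0.0819), under median-of-ratios scaling (0.0671), when only WT and KO were fitted (0.075), and without WT pIC 1, 3 or 4 or KO pIC 5 (0.0544 to 0.0758). Against HET the difference was -0.29 ± 0.11 (0.123). Slc40a1 was at 9.13, 3.62, 8.52, 2.42 and 4.29 TPM in KO pIC, 7.54, 8.52, 10.8, 9.65 and 9.54 in WT pIC and 6.81, 11.4, 12.2, 9.78 and 12.1 in HET pIC. KO libraries 1 and 3 lay within the other groups, and KO 2, 4 and 5 below them. The difference was -0.75 ± 0.26 from WT (adjusted p = 0.0696) and -0.90 ± 0.26 from HET (0.0534), not called. It was called without KO pIC 1 (adjusted p = 0.0257 against WT and 0.0206 against HET) or KO pIC 3 (0.0325 and 0.0269), and against HET without HET pIC 1 (0.0464). Endothelial, pericyte and fibroblast markers, 9 of 10 of them in the tables, summed to 24.0 TPM in KO pIC 1, 14.9 in KO pIC 3 and at most 6.04 in the other KO pIC libraries, but also to 20.1 in WT pIC 4. The microglial sum was higher in KO pIC 2, 4 and 5 than in KO pIC 1 and 3. The part of either in Slc40a1 was not tested.

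Set beside the UT and LPS levels, pIC levels split the 9 genes. Fth1 lay at 37156, 50588, 47635, 45982 and 59202 TPM in WT pIC, most of the way to its LPS level, and was the most abundant transcript in each pIC group. Saa3 lay at 3596, 3968, 5483, 4013 and 3431 TPM in WT pIC, far above UT and far below LPS. Lcn2 lay at 3.17, 2.44, 4.50, 1.05 and 1.67 TPM, where WT UT reached 3.51, so 1 library lay above the WT UT range and 4 within it. The Fth1 to Ftl1 ratio averaged 5.53 ± 0.55 in WT pIC, 5.60 ± 0.49 in HET and 5.31 ± 0.72 in KO. The order of Lcn2 means across WT groups was LPS, pIC, UT and IL4, and apart from LPS the neighbours overlapped. For Saa3 it was LPS, pIC, UT and IL4 with UT and IL4 overlapping, for Fth1 LPS, pIC, UT and IL4 with overlap between LPS and pIC and between UT and IL4, and for Slc40a1 UT, IL4, pIC and LPS with IL4 and pIC overlapping.

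Further iron genes came from a list of 48, of which 35 were tested in UT, LPS and IL4 libraries and 30 with pIC. Under LPS, 17 of 35 were higher in KO than WT and 5 lower, where 14.4% and 13.2% of all genes were, with a median difference of 0.33 beside 0.01 over all genes. The largest rise was that of Hp, the haemoglobin scavenger haptoglobin, from 6.63 ± 3.30 to 144.7 ± 50.0 TPM (4.30 ± 0.33, adjusted p = 2.38e-13). Alas1, the first enzyme of haem synthesis, rose from 366.9 ± 109 to 1390 ± 854 (1.72 ± 0.26, adjusted p = 1.81e-06) and the haem transporter Slc48a1 from 146.1 ± 49.1 to 434.2 ± 121 (1.60 ± 0.19, adjusted p = 1.86e-08). Bach1, a haem-sensitive repressor, was lower (-0.38 ± 0.10, adjusted p = 0.00288), as was Pcbp2, an iron chaperone (-0.32 ± 0.07, adjusted p = 0.000409). With LPS in WT cells, 10 of 35 rose and 22 fell (13.9% and 61.9% of all genes), with a median of -0.58 beside -0.59 over all genes, and 15 rose and 14 fell with median-of-ratios scaling. Hmox1, which degrades haem, rose from 287.5 ± 45.3 to 1640 ± 1100 TPM (2.19 ± 0.38, adjusted p = 2.74e-06), and Trf (transferrin) fell from 1114 ± 119 to 127.7 ± 23.2 (-3.13 ± 0.17, adjusted p = 1.51e-19). IL4 in WT raised 6 of 35 and lowered 4, where 3.68% and 2.63% of all genes were called (6 and 4 became 4 and 1 with median-of-ratios scaling), led by Hfe, a regulator of iron sensing, from 42.3 ± 1.78 to 87.6 ± 6.00 TPM (1.03 ± 0.17, adjusted p = 3.01e-05). Under pIC, 2 of 30 were higher in KO than WT and 3 lower, where 3.4% and 8.11% of all genes were called (2 and 3 became 5 and 1 with median-of-ratios scaling), with Hp at 77.3 ± 58.7 against 8.79 ± 4.74 TPM (2.86 ± 0.50, adjusted p = 0.00189).

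Further acute phase genes and their regulators came from a list of 35, with 19 tested in UT, LPS and IL4 libraries and 18 with pIC. Hp stands in both lists. With LPS in WT cells 13 of 19 rose and 2 fell, where 13.9% of all genes rose and 61.9% fell. Median-of-ratios scaling gave 15 and 2, where all genes split into 5024 higher and 5139 lower. Il6, an inducer of the acute phase, was listed at 0 in all WT UT libraries and at 1977 ± 832 TPM in WT LPS. Between KO and WT under LPS, 5 of 19 were higher and 5 lower, where 14.4% of all genes were higher and 13.2% lower, with a median of -0.12 beside 0.01 over all genes. C3, a complement component, was at 436.3 ± 82.8 against 253.2 ± 44.2 TPM (0.78 ± 0.26, adjusted p = 0.0196), and Cebpd, a C/EBP family factor, at 20.1 ± 6.30 against 11.5 ± 3.96 (0.76 ± 0.19, adjusted p = 0.00143). Il6 was at 727.1 ± 594 against 1977 ± 832 TPM (-1.71 ± 0.35, adjusted p = 0.000189), Nfkbiz, a co-regulator of NF-kB targets, at 88.7 ± 9.76 against 189.7 ± 22.7 (-1.09 ± 0.11, adjusted p = 1.69e-10) and Socs3, an inhibitor of cytokine signalling, at 342.7 ± 63.8 against 587.9 ± 75.3 (-0.79 ± 0.16, adjusted p = 0.00014). Lcn2 and Saa3 were not called in the same comparison (values above). Under pIC, 4 of 18 were higher in KO than WT and 0 lower, where 3.4% and 8.11% of all genes were called, Socs3 among them (0.85 ± 0.22, adjusted p = 0.0199).

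The genes whose group means were most alike those of each member, by Pearson r of log2(TPM + 1) over the 9 UT, LPS and IL4 groups among 10889 genes, are given as a description. The 9 group means share libraries, and the LPS groups set most of the pattern. Saa3 was closest to Aoah (r = 0.999), Pilrb1 and Lcn2, and Lcn2 to Gas7 (1.000), Smpdl3b and Pilrb2. Fth1 was closest to Clec4e (0.999), Snx10 and Irak3, and Cp to Jak2 (0.999), Vmp1 and N4bp1. Slc40a1 was closest to Mpc1 (0.998), Lyl1 and Cmtm8, Tfrc to Sla (0.99), Rnf19b and Fcgr2b, and Ftl1, whose pattern was the least matched, to Atg5 (0.983), Tmem14c and AI839979. Slc11a1 was closest to Tmsb4x (0.998), Rab32 and Clec4d, and Slc11a2 to Sra1 (0.992), Acp2 and Pnp.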

How the data were processed

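The authors deposited TPM per gene. Trimmomatic, FastQC, DRAGEN, Picard and the mm10 build are listed in the submitters' processing notes, without versions, order or strand setting. Each library took 300 ng RNA into an mRNA kit, per the labels. TPM fixes every library's total, so a rise in abundant genes lowers the rest, and depth is unknown. On log2(TPM + 1), limma 3.58.1 (R 4.3.3, eBayes with a trend) fitted a mean per group and 1 shared spread per table, in 22 comparisons, to genes that reached 1 TPM in 4 or more libraries. The procedure was tested on simulated libraries, drawn independently and with few genes changed, so linked replicates and fixed TPM totals were not covered. Other settings tried were quantile normalization, a pseudocount of 0.1, median-of-ratios scaling, no filter, a replicate block, fitting only the groups compared, leaving out each library and, chosen after seeing the data, TPM rescaled without the 9 genes. Ratios were tested by exact permutation.

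The 9 genes, the lists and the tests were chosen with earlier results of these data known. Beyond the 9, the rule allowed up to 5 called genes per list and direction, those with the largest differences whose higher group averaged 5 TPM or more, and for each of the 9 the 3 genes most like it in group means. Among the groups compared, same-numbered cultures deviated together, with every pair's correlation across genes above 0.1, between WT UT and WT LPS (lowest 0.117), WT UT and WT IL4 (0.191), KO UT and KO LPS (0.130), KO UT and KO IL4 (0.173), and WT UT and HET UT (0.121). The block was counted as a pairing for these alone, although it shares its effects over all groups of a table. Between the other groups compared, same-numbered cultures also correlated more on average than the rest, but not every pair was above 0.1.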

Additional observations from a re-analysis of the deposited data

Results flagged for a closer look

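In 4 of the 108 sets formed by 1 of the 9 genes in 1 group of 4 or 5 libraries, 1 library stood apart from the rest, where chance gives about 1 in 20. Ftl1 was at 9674 TPM in WT UT 2, with the other WT UT libraries at 7811 to 7926. It was at 10658 TPM in HET UT 5, with the others at 8791 to 9210, and at 11684 TPM in KO IL4 5, with the others at 8570 to 9312. Saa3 was at 19.7 TPM in HET UT 3, with the others at 43.3 to 49.4.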

How the results depend on the processing

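With LPS, the 7 higher genes and the fall of Slc40a1 kept direction and call in each genotype under each alternative run. Ftl1 turned from -0.56 to 0.0603 (adjusted p = 0.822) in HET LPS against UT with median-of-ratios scaling, which left 1 member lower there in place of 2. In KO LPS against UT, members higher numbered 8 in place of 7, through Ftl1, with that scaling and with TPM rescaled without the 9 genes. Members higher in KO than WT under LPS numbered 1 with no filter and 1 when only the groups compared were fitted, in place of 2, and 1 to 2 with each library left out. Members lower numbered 0 with quantile normalization and 0 when only the groups compared were fitted, in place of 1. In KO against HET under LPS, members lower were again 0 and 0 under these settings in place of 1, and with libraries left out 0 to 1 were lower and 1 to 2 higher. For LPS against UT in WT, 2 were lower with quantile normalization and 2 with the replicate block in place of 1 (1 to 2 with libraries left out). For IL4 against UT in WT, 1 was lower in place of 2 with a pseudocount of 0.1, no filter, median-of-ratios scaling, quantile normalization or TPM rescaled without the 9 genes, 4 were lower with the replicate block, and 1 to 2 with libraries left out. In HET that last range was 1 to 2. For IL4 in KO, 1 was higher with no filter and 1 lower when only the groups compared were fitted, each in place of 2, with 1 to 2 higher and 1 to 3 lower with libraries left out. In the difference of LPS responses between KO and WT, 1 was higher with quantile normalization and 1 with the replicate block in place of 0, and 0 to 1 were higher and 0 to 1 lower with libraries left out. In pIC KO against WT, 0 were lower under median-of-ratios scaling, quantile normalization or when only the groups compared were fitted, in place of 1, and 0 to 2 with libraries left out. In pIC KO against HET, 1 was lower with the replicate block in place of 0, and 0 to 1 with libraries left out. The causes were not tested. The block also called Fth1 between KO and WT under LPS (adjusted p = 0.0415) and in IL4 against UT in HET (0.00408). Slc40a1 was called with it in pIC KO against HET (0.0465). In these comparisons not every same-numbered pair correlated above 0.1. Between HET UT and HET IL4, same-numbered pairs still correlated at 0.285 on average, beside -0.0695 for the other pairs. Other lists moved as well: iron genes lower in KO than WT under LPS were 3 with quantile normalization and 2 when only the groups compared were fitted, in place of 5, and acute phase genes higher were 2 in the latter in place of 5. Depth in reads is unknown, so no counting error could be given at low TPM (Lcn2 without LPS, Cp in UT).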
